A study of Mus musculus with 32 samples.

Results

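The young multipotent progenitor fractions MPP1 and MPP4 were compared in 4 RNA-seq libraries, 2 of each fraction, out of 32 libraries in the series. They were taken by their labels, without reference to any measured value. Both fractions came from the bone marrow of female C57BL/6 mice at 10 weeks of age, and both gates took CD34+ cells among the Lin- Sca-1+ c-kit+ cells and were labelled IL-7-. The MPP1 gate was CD150+ CD48- Flt3- and the MPP4 gate was CD150- CD48+ Flt3+. The series also holds 6 other marrow fractions at the same age (HSC, MPP2, MPP3, CLP, GMP and MEP) and all 8 fractions from mice at 20 months of age. The 4 aged MPP1 and MPP4 libraries, sorted with the same gates, and the 4 young MPP2 (CD150+ CD48+ Flt3-) and MPP3 (CD150- CD48+ Flt3-) libraries are used below for comparison. Marrow was pooled by age before sorting in duplicate in one account of the study and the duplicates are called biological in another, so the spread between duplicates may not cover differences between mice.

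MPP1 lies next to the haematopoietic stem cell and can still give rise to every blood lineage. MPP4, also known as the lymphoid-primed multipotent progenitor, carries high levels of the cytokine receptor Flt3, has largely lost the potential to make megakaryocytes and red cells, retains myeloid potential, and starts to transcribe genes of the lymphoid programme such as Dntt and Rag1. The CLP, the common lymphoid progenitor, follows it on the path to B and T cells.

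The 4 libraries held 12471169 to 15140331 counts, against 11237384 to 17723245 over the series, and between 14000 and 14371 genes with at least 1 count. Levels are given in CPM, the count scaled to the total of its library, where 3 counts correspond to 0.198 to 0.241 CPM. Levels in CPM are not per length and are compared only between libraries, not between genes. Fold changes are young MPP4 over young MPP1 on the log2 scale, from edgeR's quasi-likelihood test over 14154 tested genes. A gene is called at an adjusted p under 0.01. The value after ± is an approximate standard error, the absolute log2 fold change divided by the square root of the test's F statistic. It can understate the counting error where one fraction has few counts. The genes of the gate served as a check. Slamf1, which encodes CD150, had 20.6 and 23.7 CPM in MPP1 and 0.198 and 0.481 CPM in MPP4. Cd48 had 8.73 and 6.58 CPM in MPP1 and 107 and 129 CPM in MPP4, and Flt3 had 92.5 and 93.7 CPM in MPP1 and 1131 and 1123 CPM in MPP4. All 3 lay on the side of their gates in every library. Kit, in the gate of both fractions, was lower in MPP4 (log2 fold change -0.67 ± 0.11, adjusted p = 8.04e-05), Cd34 was higher (log2 fold change 1.29 ± 0.11, adjusted p = 1.36e-08), and Ly6a, a gene of the Sca-1 antigen, had 169.7 and 177 CPM in MPP1 and 162 and 186 CPM in MPP4, with overlapping groups. These antigens were left out of the counts for the gene groups below.

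MPP4 differed from MPP1 by more than duplicates differed from each other, with similar numbers of genes called in each direction. The root mean square log2 difference over tested genes was 0.461 between the MPP1 duplicates and 0.519 between the MPP4 duplicates, and averaged 0.93 over the 4 pairs of an MPP1 with an MPP4 library, with a range of 0.915 to 0.95. The same distance from MPP1 was 0.731 to MPP2 and 0.844 to MPP3, and MPP4 lay 1.28 from the HSC and 1.48 from the CLP. Of the tested genes, 938 (6.63%) were called higher and 887 (6.27%) lower in MPP4. Changes of 2 log2 units or more were counted for 184 of the higher and 274 of the lower genes. In all 1825 called genes both MPP4 libraries lay on the same side of both MPP1 libraries, which also held for 3377 higher and 5177 lower genes among all tested. When one library was left out, with its lone duplicate assumed to vary like the other groups, the fit called 510 higher and 582 lower genes without the first MPP1 library, 541 and 576 without the second, 696 and 551 without the first MPP4 library, and 663 and 572 without the second.

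**Figure D1:**
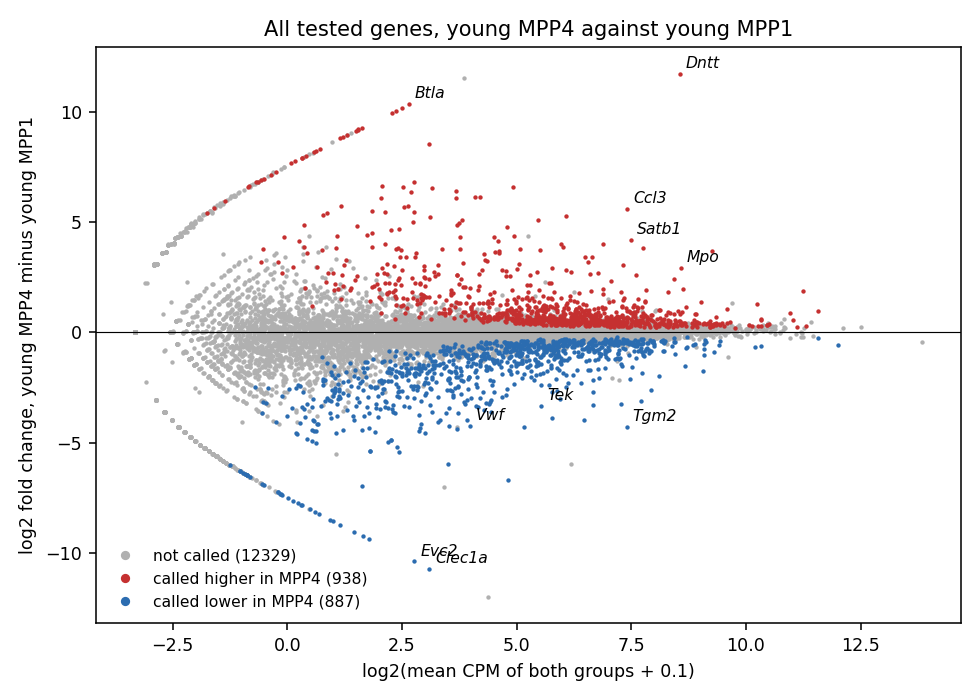
Log2 fold change of young MPP4 over young MPP1 (vertical axis) against the log2 mean CPM of both fractions plus 0.1 (horizontal axis) for each of the 14154 tested genes, with 938 called higher in red, 887 called lower in blue and the rest in grey. The curved edges are genes with no count in one fraction, whose fitted fold depends on the model's prior count; Dntt stands alone at the upper right.

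The gene with the largest fitted rise was Dntt, which encodes terminal deoxynucleotidyl transferase, the enzyme that adds nucleotides at the joints of antigen receptor genes. Dntt (ENSMUSG00000025014.13, mm10 chr19:41029275-41059525, plus strand) had 0.15 and 0.296 CPM in MPP1 and 734 and 779 CPM in MPP4, from 2 and 4 counts and 11106 and 9715 counts. It was near the floor of detection in both MPP1 libraries and among the well expressed genes in both MPP4 libraries (log2 fold change 11.72 ± 0.19, adjusted p = 2.08e-17). With only 2 and 4 counts in MPP1, the ± of 0.19 is smaller than the counting error. Among the genes lower in MPP4, Tek, the receptor tyrosine kinase Tie2 of stem and endothelial cells (ENSMUSG00000006386.15, mm10 chr4:94739289-94874976, plus strand), had 83.5 and 86.7 CPM in MPP1 and 9.51 and 6.33 CPM in MPP4. Pf4, a chemokine of platelet granules (ENSMUSG00000029373.7, mm10 chr5:90772435-90773383, plus strand), had 15.1 and 19.1 CPM in MPP1 and 2.05 and 2.25 CPM in MPP4. Neither gene's groups overlapped, and both fell in MPP4 (log2 fold change -3.35 ± 0.42 and -2.93 ± 0.43, adjusted p = 8.76e-06 and 2.4e-05).

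The bases in front of these 3 genes are shown because they are the regulatory stretch nearest to the largest rise and to falls of a stem cell and a platelet gene, and because their start sites are the same in RefSeq and in GENCODE. Each is the 250 bases before the start site on the gene's own strand, from RefSeq on GRCm38.p6 (the mm10 assembly), at chr19:41029025-41029274, chr4:94739039-94739288 and chr5:90772185-90772434. Capitals mark matches on either strand to 4 short letter strings: AGATAA (of the GATA type), CAGGTG (an E box), GGAAGT (of the ETS type) and TGTGGT (of the RUNX type).
Dntt: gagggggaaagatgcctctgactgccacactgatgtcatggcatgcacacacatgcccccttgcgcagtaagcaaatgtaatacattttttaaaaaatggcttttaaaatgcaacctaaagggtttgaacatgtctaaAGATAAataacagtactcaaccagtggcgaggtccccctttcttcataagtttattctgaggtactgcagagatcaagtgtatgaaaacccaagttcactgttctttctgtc
Tek: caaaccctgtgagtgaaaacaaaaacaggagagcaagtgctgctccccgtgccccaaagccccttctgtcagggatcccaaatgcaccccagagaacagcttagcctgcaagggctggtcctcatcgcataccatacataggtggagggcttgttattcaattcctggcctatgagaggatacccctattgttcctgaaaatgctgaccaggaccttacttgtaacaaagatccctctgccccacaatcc
Pf4: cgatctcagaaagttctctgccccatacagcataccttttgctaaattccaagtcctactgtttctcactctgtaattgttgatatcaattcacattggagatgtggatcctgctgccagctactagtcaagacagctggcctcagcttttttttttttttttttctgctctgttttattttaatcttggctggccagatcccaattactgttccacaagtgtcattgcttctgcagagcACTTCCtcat
Dntt held 1 match, to AGATAA, at 112 to 107 bases before the start, and Pf4 held 1, to GGAAGT on the opposite strand, at 10 to 5 bases before the start. Tek held no match in this window. Of 32851 promoters of the same length, 9.99% held AGATAA, 17.2% CAGGTG, 19.7% GGAAGT and 14.0% TGTGGT. The matches did not overlap each other.

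Most of the early lymphoid genes were called higher in MPP4. Of 35 tested members of a list of 36, 22 were called higher, 1 lower and 12 were not called, with a median log2 fold change of 1.56, where the median over all tested genes was 0. With any one library left out, 21 or 22 members were called higher and none lower. Besides Dntt, the largest fitted rises among the named members were those of Btla, an inhibitory receptor of lymphocytes, Il7r, the receptor chain for interleukin 7, and Ccr9, the chemokine receptor that guides progenitors to the thymus. Btla was at 0 in both MPP1 libraries and had 170 and 170 counts in the MPP4 libraries, a log2 change of at least 6.78 against a floor of 3 counts over both MPP1 libraries (adjusted p = 1.83e-07). Il7r, the receptor of the cytokine that the gate label gives as absent, was also at 0 in both MPP1 libraries and had 4.62 and 6.25 CPM in MPP4, a log2 rise of at least 5.58 (adjusted p = 1.48e-06). An antibody to its product, IL-7Rα, was in the depletion mix of both fractions, and Il7r was kept in the list counts. Ccr9 had 0 and 1 counts in MPP1 and 262 and 201 in MPP4, a log2 ratio of 8.81, with a 95% counting interval of 6.33 to 14.12.

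Others on the list were present in MPP1 at a lower level. Il12a, a subunit of interleukin 12, had 11.7 and 15.1 CPM in MPP1 and 94.5 and 97.7 CPM in MPP4. Every MPP4 library was far above every MPP1 library (log2 fold change 2.90 ± 0.18, adjusted p = 9.2e-11). Cd52, a small surface protein of lymphocytes, had 3.76 and 4.51 CPM in MPP1 and 31.6 and 41.9 CPM in MPP4 (log2 fold change 3.21 ± 0.19, adjusted p = 5.07e-11). Ccr7, the receptor that leads cells to lymph nodes, had 0.451 and 0.37 CPM in MPP1 and 12.9 and 12.7 CPM in MPP4 (log2 fold change 4.99 ± 0.53, adjusted p = 1.07e-06). Rag1, a subunit of the recombinase of antigen receptor genes, stayed low, with 0.226 and 0.148 CPM in MPP1 and 2.18 and 2.41 CPM in MPP4 (log2 fold change 3.61 ± 0.62, adjusted p = 0.000536). Without the second MPP1 library Rag1 had an adjusted p of 0.0131, above the threshold. Rnase6 was the 1 member called lower (log2 fold change -0.58 ± 0.15, adjusted p = 0.00768), and that call was lost when any one library was left out.

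Among 28 transcription factors of lymphoid priming, 11 were called higher and 2 lower, with a median of 0.43. Satb1, a chromatin organiser that promotes the lymphoid fate of stem cells, had the largest rise among the well expressed members. Satb1 (ENSMUSG00000023927.15, mm10 chr17:51736187-51833290, minus strand) had 21.7 and 17.2 CPM in MPP1 and 362 and 319 CPM in MPP4 (log2 fold change 4.2 ± 0.15, adjusted p = 9.37e-15). Irf8, a regulator of dendritic cells, monocytes and B cells, had 12 and 11.8 CPM in MPP1 and 73.4 and 76.3 CPM in MPP4 (log2 fold change 2.72 ± 0.14, adjusted p = 6.17e-12). The groups of both genes were far apart. Ets1 and Id3 rose by 1.28 ± 0.13 and 1.38 ± 0.22 log2 units (adjusted p = 2.92e-07 and 0.000127).

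Ikzf1, the Ikaros factor needed for lymphoid development, had 168 and 156 CPM in MPP1 and 271 and 239.8 CPM in MPP4 (log2 fold change 0.72 ± 0.11, adjusted p = 2.85e-05). Mef2c and Tcf4, which act in B cell and dendritic cell development, rose by 0.78 ± 0.10 and 0.58 ± 0.10 (adjusted p = 5.08e-06 and 0.000147). The 2 that fell were Gata3, a factor of T cells that is also active in stem cells, with 47.3 and 51.6 CPM in MPP1 and 17.2 and 18.4 CPM in MPP4 (log2 fold change -1.41 ± 0.16, adjusted p = 1.51e-06), and Foxo1, an activator of Il7r and Rag genes in lymphocytes (log2 fold change -0.63 ± 0.12, adjusted p = 0.000644). With any one library left out, 8 or 9 members were called higher and 2 lower.

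**Figure D2:**
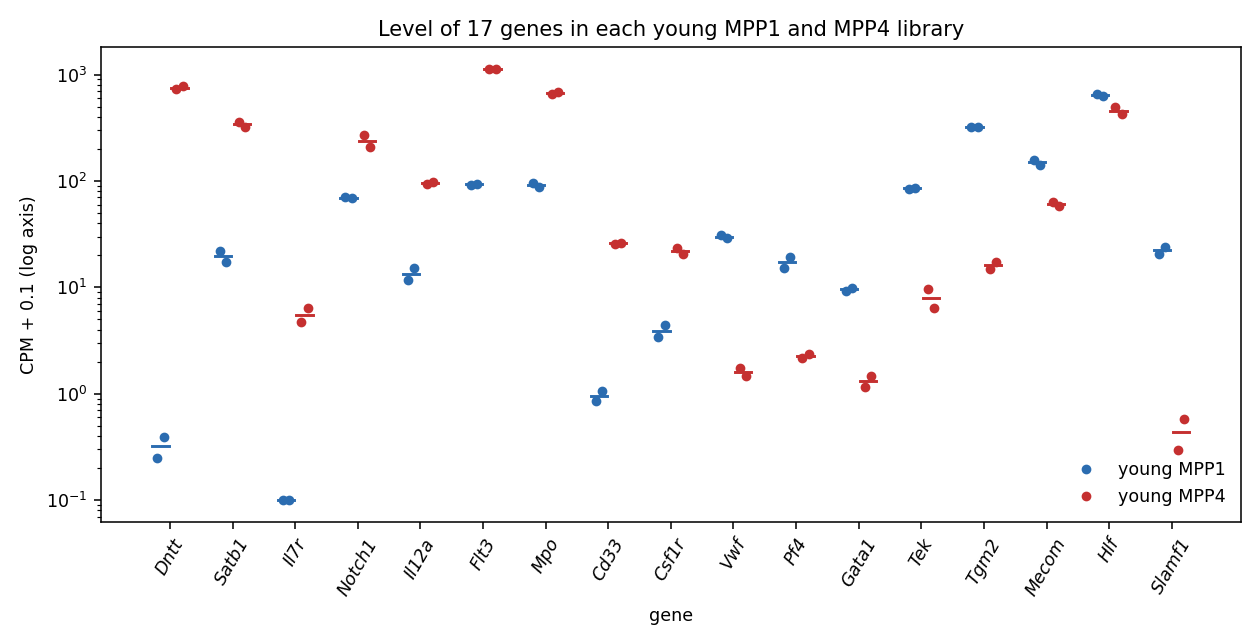
CPM plus 0.1, on a log axis, of 17 genes in each young MPP1 (blue) and MPP4 (red) library, with points for single libraries and bars for the mean of 2. Dntt, Satb1 and Il12a were higher and Vwf, Tek and Tgm2 lower in both MPP4 libraries than in both MPP1 libraries, by more than the duplicates differed; Flt3 and Slamf1 are antigens of the gates.

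The genes of the stem cell state went the other way. Of 29 tested genes of the stem cell surface and adhesion, 19 were called lower and 1 higher, with a median of -1.17, and the lower calls numbered 18 or 19 when any one library was left out. Tgm2, a transglutaminase, had 319 and 325 CPM in MPP1 and 14.9 and 17.1 CPM in MPP4 (log2 fold change -4.27 ± 0.16, adjusted p = 1.01e-13). The difference between the groups was many times that between duplicates. Itgb3, the integrin beta chain of the vitronectin receptor, had 30.4 and 32.8 CPM in MPP1 and 2.71 and 3.21 CPM in MPP4 (log2 fold change -3.36 ± 0.39, adjusted p = 1.38e-06). Procr, the stem cell antigen EPCR, had 88.9 and 86 CPM in MPP1 and 36.3 and 38.3 CPM in MPP4 (log2 fold change -1.17 ± 0.17, adjusted p = 3.43e-05). Sult1a1, a sulfotransferase, fell as well (log2 fold change -4.24 ± 0.29, adjusted p = 1.63e-09). Adgrl4, an adhesion receptor, was the 1 gene called higher (log2 fold change 0.55 ± 0.11, adjusted p = 0.000848), and the call was lost without the first MPP1 or the second MPP4 library (adjusted p = 0.0141 and 0.0257).

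The transcription regulators of stem cells fell less uniformly. Of 25 tested, 10 were called lower, 1 higher and 14 were not called, with a median of -0.39. Hoxb5, a homeobox gene that marks long-term stem cells, had 7.3 and 7.4 CPM in MPP1 and 0.594 and 0.641 CPM in MPP4 (log2 fold change -3.49 ± 0.41, adjusted p = 5.79e-06). Gata2, a factor of stem and mast cells, had 452 and 437 CPM in MPP1 and 107 and 107 CPM in MPP4 (log2 fold change -1.99 ± 0.21, adjusted p = 3.02e-07). Both were clearly lower in each MPP4 library.

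Gfi1b and Mllt3 fell by a similar amount (log2 fold change -1.94 ± 0.15 and -1.93 ± 0.11, adjusted p = 1.97e-09 and 1.14e-11). Mecom, which encodes Evi1, had 158 and 142 CPM in MPP1 and 62.7 and 57.8 CPM in MPP4 (log2 fold change -1.25 ± 0.15, adjusted p = 2.7e-06), and Meis1 had 541 and 505 CPM in MPP1 and 317 and 289 CPM in MPP4 (log2 fold change -0.72 ± 0.11, adjusted p = 6.92e-05). These 2 kept a substantial level in MPP4. Hlf, a factor of stem cell self-renewal, had 664 and 635 CPM in MPP1 and 491 and 426 CPM in MPP4 and was not called (log2 fold change -0.44 ± 0.16, adjusted p = 0.0533), although DESeq2 gave it an adjusted p of 0.00109. Hoxa9 was the 1 called higher, with 79.5 and 79.5 CPM in MPP1 and 134 and 134 CPM in MPP4 (log2 fold change 0.82 ± 0.15, adjusted p = 0.000265).

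Megakaryocyte and platelet genes showed the most frequent falls of the 18 lineage and function lists. Of 28 tested, 22 were called lower and 2 higher, with a median of -1.97, and 17 to 21 were called lower when any one library was left out. Vwf, the von Willebrand factor of platelets and of platelet-biased stem cells, had 30.8 and 29 CPM in MPP1 and 1.65 and 1.36 CPM in MPP4 (log2 fold change -4.23 ± 0.32, adjusted p = 1.88e-09). Itga2b, the platelet integrin CD41, had 118 and 114 CPM in MPP1 and 21.5 and 23.3 CPM in MPP4 (log2 fold change -2.31 ± 0.16, adjusted p = 4.35e-10). Rab27b, which moves platelet granules, had 36.1 and 35.7 CPM in MPP1 and 1.92 and 4.17 CPM in MPP4 (log2 fold change -3.52 ± 0.38, adjusted p = 3.87e-07). In each of these genes the lowest MPP1 library was well above the highest MPP4 library. Sdpr, a protein of caveolae, fell by more (log2 fold change -5.20 ± 0.64, adjusted p = 2.74e-06).

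The 2 that rose were Plek, a substrate of protein kinase C in platelets and leukocytes, with 45.6 and 48.2 CPM in MPP1 and 217 and 226 CPM in MPP4 (log2 fold change 2.30 ± 0.19, adjusted p = 6.72e-09), and Thbs1, thrombospondin 1, with 43.9 and 46.4 CPM in MPP1 and 120.0 and 107 CPM in MPP4 (log2 fold change 1.39 ± 0.27, adjusted p = 0.00065). The call of Thbs1 was lost without the first MPP1 library (adjusted p = 0.0158). Both moved against the rest of the list, and leukocytes make them as well as platelets.

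Of 28 erythroid genes, 9 were called lower, 1 higher and 18 were not called, with a median of -0.81. Gata1, the master factor of red cells and megakaryocytes, had 9.18 and 9.77 CPM in MPP1 and 1.06 and 1.36 CPM in MPP4 (log2 fold change -2.91 ± 0.28, adjusted p = 8.78e-08). Its level was low in MPP1 and lower still in MPP4. Epor, the erythropoietin receptor, had 6.24 and 7.32 CPM in MPP1 and 1.06 and 0.641 CPM in MPP4 (log2 fold change -2.89 ± 0.39, adjusted p = 1.18e-05). Rhag and Aqp1, a membrane transporter and a water channel of red cells, fell as well (log2 fold change -3.33 ± 0.43 and -2.54 ± 0.31, adjusted p = 8.47e-06 and 2.98e-06). Tfrc, the transferrin receptor that dividing cells also use, rose (log2 fold change 1.31 ± 0.19, adjusted p = 1.83e-05).

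Genes of the neutrophil and monocyte lineage rose in part. Of 30 tested, 14 were called higher, 1 lower and 15 were not called, with a median of 0.61, and 10 to 13 were called higher when any one library was left out. Mpo, the myeloperoxidase of granules, had 95.8 and 88.6 CPM in MPP1 and 663 and 686 CPM in MPP4 (log2 fold change 2.94 ± 0.41, adjusted p = 1.52e-05). Cebpa, the factor that starts granulocyte development, had 8.2 and 9.03 CPM in MPP1 and 50 and 47.4 CPM in MPP4 (log2 fold change 2.56 ± 0.17, adjusted p = 1.85e-10). Both were several-fold higher in each MPP4 library.

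The receptors of this lineage also rose. Csf1r, the receptor of macrophage growth factor, had 3.31 and 4.29 CPM in MPP1 and 23.5 and 20.4 CPM in MPP4 (log2 fold change 2.59 ± 0.24, adjusted p = 3.73e-08). Csf3r, the receptor for G-CSF, had 130.2 and 138 CPM in MPP1 and 247 and 244 CPM in MPP4 (log2 fold change 0.94 ± 0.10, adjusted p = 3.51e-07). Cd33, a sialic acid binding receptor, had 0.752 and 0.962 CPM in MPP1 and 25.7 and 26 CPM in MPP4 (log2 fold change 4.96 ± 0.54, adjusted p = 6.51e-07). The rise was small for Csf3r and large for Cd33. Lyz2, the lysozyme of mature myeloid cells, was the 1 called lower (log2 fold change -0.43 ± 0.10, adjusted p = 0.00384), a call lost without the second MPP1 or the first MPP4 library (adjusted p = 0.0598 and 0.0996).

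The basophil, mast cell and eosinophil list was split. Of 18 tested genes, 4 were called higher and 5 lower. With one library left out, 3 were called higher, and 4 were called lower without the first MPP1 library and 3 without the second MPP1, the first MPP4 or the second MPP4 library. The basophil protease gene Prss34 was at 0 in both MPP1 libraries and had 145 and 156 counts in MPP4, a log2 change of at least 6.61 (adjusted p = 2.71e-06). The eosinophil peroxidase gene Epx had 69 and 93 counts in MPP1 and 0 in both MPP4 libraries, at least 5.80 log2 units higher in MPP1 (adjusted p = 0.000535). Prg2, the major basic protein of eosinophils, had 23.8 and 25.2 CPM in MPP1 and 1.78 and 1.92 CPM in MPP4 (log2 fold change -3.66 ± 0.48, adjusted p = 1.04e-05). The other 3 called lower were Prg3, a relative of Prg2, the cytokine gene Il4 and Gata2, the first 2 of them named here after their values were seen. Ccl3, an inflammatory chemokine, had 6.7 and 7.69 CPM in MPP1 and 319 and 347 CPM in MPP4 (log2 fold change 5.59 ± 0.16, adjusted p = 2.31e-15), and Cpa3, a mast cell protease, had 4.14 and 4 CPM in MPP1 and 5.81 and 6.09 CPM in MPP4 (log2 fold change 0.61 ± 0.16, adjusted p = 0.00819). The call of Cpa3 was lost when any one library was left out (adjusted p = 0.03 to 0.0631).

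**Figure D3:**
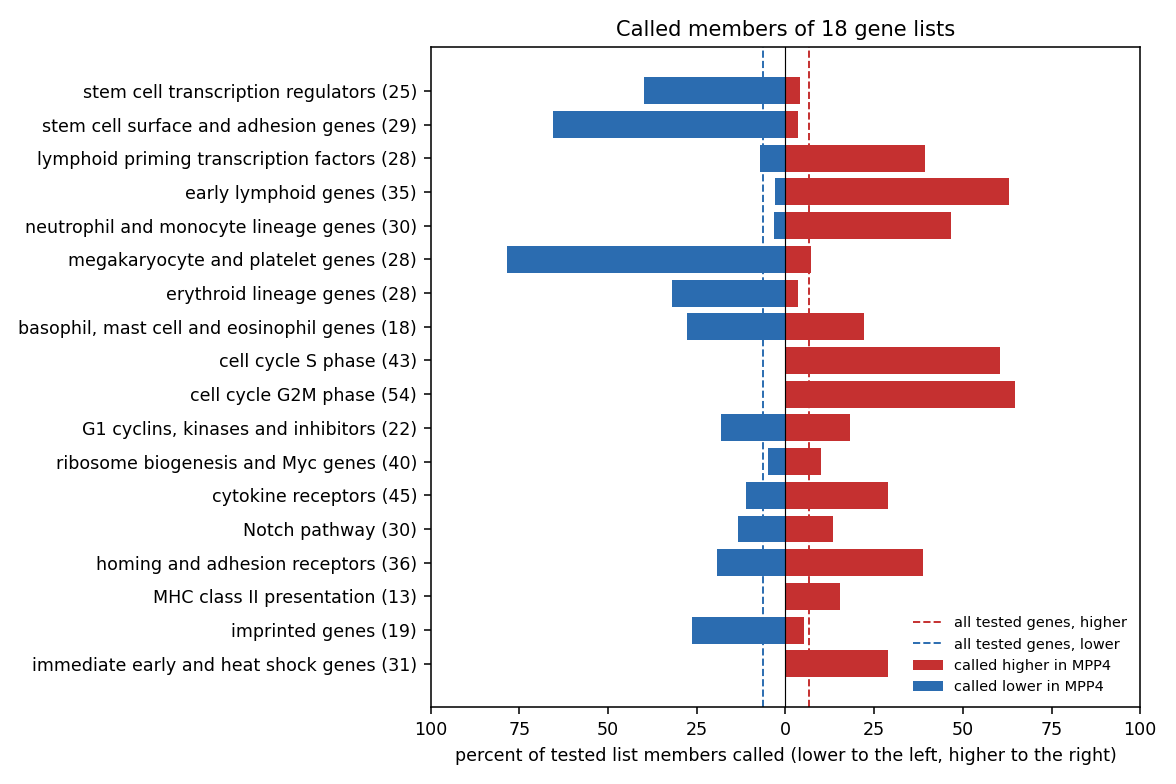
Percent of the tested members of 18 gene lists called lower (blue, to the left) or higher (red, to the right) in young MPP4 than in young MPP1, with the number tested in parentheses and dashed lines at the share over all tested genes, 6.27% lower and 6.63% higher. Megakaryocyte and stem cell surface genes extend furthest to the left, and early lymphoid and cell cycle genes furthest to the right.

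Most cell cycle genes were called higher in MPP4, by small amounts, and none was called lower. Of 43 genes of S phase, 26 were called higher and 17 were not called, with a median of 0.38, and of 54 genes of G2 and M phase, 35 were called higher and 19 were not called, with a median of 0.48. The medians stayed within 0.37 to 0.39 and 0.47 to 0.49 when any one library was left out, while the counts dropped to 12 and 16 without the first MPP1 library, 15 and 17 without the second, 20 and 20 without the first MPP4 library, and 15 and 20 without the second. A fit of the 4 libraries alone called 11 and 23 higher. Top2a, the topoisomerase of dividing cells, had 286 and 278 CPM in MPP1 and 482 and 469.6 CPM in MPP4 (log2 fold change 0.82 ± 0.13, adjusted p = 5.51e-05). Bub1, a kinase of the spindle checkpoint, had 48.6 and 49.5 CPM in MPP1 and 81.2 and 82.4 CPM in MPP4 (log2 fold change 0.80 ± 0.15, adjusted p = 0.000334). Brip1, a helicase of DNA repair, had 37 and 36.9 CPM in MPP1 and 57.5 and 58.3 CPM in MPP4 (log2 fold change 0.71 ± 0.09, adjusted p = 5.32e-06). These rises were of less than 1 log2 unit but exceeded the spread between duplicates. Mki67, the proliferation antigen Ki-67, had 148 and 98.2 CPM in MPP1 and 252 and 135 CPM in MPP4. Its groups overlapped and it was not called (log2 fold change 0.72 ± 0.20, adjusted p = 0.0146). With replicate number as an added term in the fit, Mki67 was called (log2 fold change 0.71, adjusted p = 0.00888). Without the first MPP1 library or without the second MPP4 library its log2 fold change was 1.04 and 1.1. Each of these fits left out the library of its fraction that lay nearest to the other fraction. Without the first MPP4 library instead, the remaining MPP4 library, at 135 CPM, lay between the MPP1 libraries at 148 and 98.2 CPM.

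The genes of the G1 phase were mixed, with 4 of 22 higher and 4 lower; 2 or 3 were called in each direction when any one library was left out, with only 2 higher without the second MPP1 library and only 2 lower without the first MPP1 or the first MPP4 library. Cdkn1c, the inhibitor p57 that holds stem cells out of the cycle, had 57.3 and 55.3 CPM in MPP1 and 11.4 and 14.2 CPM in MPP4 (log2 fold change -2.08 ± 0.27, adjusted p = 6.65e-06). Cdkn1a, the inhibitor p21, had 38 and 34.3 CPM in MPP1 and 115 and 98.1 CPM in MPP4 (log2 fold change 1.62 ± 0.13, adjusted p = 2.67e-09). These inhibitors moved in opposite directions. Cdk6, a kinase of entry into the cycle, had 56.1 and 48.2 CPM in MPP1 and 89.9 and 67.4 CPM in MPP4 (log2 fold change 0.66 ± 0.11, adjusted p = 0.000198), and its call was lost in a fit of the 4 libraries alone (adjusted p = 0.0312) and without the second MPP1 or the first MPP4 library (adjusted p = 0.0102 and 0.0145). Ccnd2 and Ccnd3, both D cyclins, were lower (log2 fold change -0.60 ± 0.13 and -0.52 ± 0.08, adjusted p = 0.00129 and 3.98e-05), and Ccnd1 was not called (log2 fold change -0.43 ± 0.21, adjusted p = 0.157). Ccnd2 lost its call without the first MPP1 or the first MPP4 library (adjusted p = 0.014 and 0.0252).

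Of 40 genes of ribosome biogenesis and the Myc family, 4 were called higher and 2 lower, with a median of 0.13. None was called higher without the first or without the second MPP1 library, and 3 and 2 without the first and the second MPP4 library. Myc had 508 and 500.0 CPM in MPP1 and 382 and 553 CPM in MPP4, and its groups overlapped (log2 fold change -0.04 ± 0.18, adjusted p = 0.922). Mycn, its relative in stem cells, had 212 and 212 CPM in MPP1 and 87.8 and 94.5 CPM in MPP4 (log2 fold change -1.15 ± 0.18, adjusted p = 6.83e-05). Npm1 and Dkc1, proteins of the nucleolus, rose slightly (0.39 ± 0.09 and 0.38 ± 0.09, adjusted p = 0.00476 and 0.00368). Dkc1 lost its call when any one library was left out (adjusted p = 0.011 to 0.0503), and Npm1 lost it without the first or second MPP1 or the second MPP4 library (adjusted p = 0.0851, 0.0118 and 0.161).

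Cytokine receptors changed in both directions. Of 45 tested, 13 were called higher and 5 lower. Il1r1, the receptor for interleukin 1, had 19.6 and 18.9 CPM in MPP1 and 174 and 161 CPM in MPP4 (log2 fold change 3.19 ± 0.19, adjusted p = 3.44e-11). Il10ra, a receptor chain for interleukin 10, had 3.24 and 4.14 CPM in MPP1 and 47 and 43.9 CPM in MPP4 (log2 fold change 3.68 ± 0.21, adjusted p = 1.68e-11). Tgfbr3, the co-receptor for TGF-beta called betaglycan, had 106 and 100.1 CPM in MPP1 and 7.79 and 5.61 CPM in MPP4 (log2 fold change -3.87 ± 0.16, adjusted p = 1.01e-13). The MPP1 and MPP4 libraries of these 3 receptors were far apart. The growth hormone receptor gene Ghr also fell (log2 fold change -3.30 ± 0.41, adjusted p = 6.03e-06).

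The Notch pathway had calls in both directions, with 4 of 30 genes higher, 4 lower and a median of -0.03. Notch1, the receptor that directs progenitors to the T cell lineage, had 70.6 and 69 CPM in MPP1 and 271 and 206 CPM in MPP4 (log2 fold change 1.84 ± 0.22, adjusted p = 1.53e-06). Dtx4, a regulator of Notch, had 4.81 and 2.89 CPM in MPP1 and 23.6 and 20.3 CPM in MPP4 (log2 fold change 2.58 ± 0.24, adjusted p = 3.98e-08). Hes1, a repressor that Notch signals switch on, had 82.8 and 84.9 CPM in MPP1 and 39.2 and 36.6 CPM in MPP4 (log2 fold change -1.08 ± 0.12, adjusted p = 1.02e-06). Nrarp, another target of Notch signals, fell by a like amount (log2 fold change -1.13 ± 0.16, adjusted p = 1.18e-05). Notch1 was thus higher, and both of these targets lower, in the same libraries. Without the first MPP4 library 2 rather than 4 members of the list were called lower.

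Homing and adhesion receptors also had calls in both directions, 14 higher and 7 lower of 36 tested. Itgal, the alpha chain of the leukocyte integrin LFA-1, had 15.7 and 16.7 CPM in MPP1 and 160.0 and 166 CPM in MPP4 (log2 fold change 3.39 ± 0.19, adjusted p = 2.02e-11). Itgb5, an integrin beta chain, had 19.9 and 15.2 CPM in MPP1 and 123 and 112 CPM in MPP4 (log2 fold change 2.80 ± 0.17, adjusted p = 1.87e-10). Podxl, a sialomucin of stem and endothelial cells, had 14.9 and 13.5 CPM in MPP1 and 1.12 and 0.321 CPM in MPP4 (log2 fold change -4.16 ± 0.41, adjusted p = 4.93e-07). Selp, P-selectin, fell as well (log2 fold change -1.28 ± 0.15, adjusted p = 1.51e-06). Cxcr4, the receptor that holds progenitors in the marrow, had 8.35 and 8.73 CPM in MPP1 and 8.39 and 9.78 CPM in MPP4 and overlapping groups (log2 fold change 0.15 ± 0.20, adjusted p = 0.678).

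Among 13 genes of MHC class II presentation, 2 were called higher, none lower and 11 were not called, while a fit of the 4 libraries alone called 1 lower and a fit of the 16 young libraries called 2 lower. H2-Ob, a chain of a molecule that modulates peptide loading in B cells, had 30.5 and 30.1 CPM in MPP1 and 178 and 199.8 CPM in MPP4 (log2 fold change 2.71 ± 0.18, adjusted p = 1.87e-10). Ctss, cathepsin S, rose by less (log2 fold change 1.46 ± 0.20, adjusted p = 8.79e-06). Cd74, the invariant chain, had 134 and 141 CPM in MPP1 and 111 and 120.0 CPM in MPP4 and was not called (log2 fold change -0.19 ± 0.26, adjusted p = 0.685).

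Of 19 tested imprinted genes, 5 were called lower and 1 higher, with a median of -1.08. Grb10, an adaptor that restrains growth factor signals, had 171 and 162 CPM in MPP1 and 9.71 and 10.8 CPM in MPP4 (log2 fold change -3.96 ± 0.17, adjusted p = 2.34e-13). Ndn, necdin, had 62.3 and 60.7 CPM in MPP1 and 16.6 and 18.7 CPM in MPP4 (log2 fold change -1.74 ± 0.20, adjusted p = 7.63e-07). Igf2r, which clears the growth factor IGF2, was the 1 called higher (log2 fold change 0.99 ± 0.20, adjusted p = 0.000905), a call lost without the first or second MPP1 or the first MPP4 library (adjusted p = 0.0169, 0.0107 and 0.0308).

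Of 31 immediate early and heat shock genes, which respond within minutes to signals and handling, 9 were called higher and none lower in MPP4. Btg2, an inhibitor of proliferation, had 284 and 306 CPM in MPP1 and 737 and 735 CPM in MPP4 (log2 fold change 1.38 ± 0.15, adjusted p = 6.41e-07). Ier3 had 259.7 and 267 CPM in MPP1 and 564 and 554 CPM in MPP4 (log2 fold change 1.15 ± 0.14, adjusted p = 2.64e-06), and Atf3, a stress factor, had 17.3 and 11.5 CPM in MPP1 and 66.9 and 53.5 CPM in MPP4 (log2 fold change 2.13 ± 0.27, adjusted p = 9.29e-06).

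Outside the lists, the largest called falls among genes of at least 10 CPM were in Clec1a, a C-type lectin, and Evc2, a protein of the primary cilium, both at 0 in the 2 MPP4 libraries. Clec1a had 17.3 and 16.4 CPM in MPP1 and was at least 7.28 log2 units higher there, and Evc2 at least 6.95 (adjusted p = 8.85e-09 and 3.9e-09). Aldh1a1, an aldehyde dehydrogenase that makes retinoic acid, had 53 and 58.7 CPM in MPP1 and 0.33 and 0.722 CPM in MPP4 (log2 fold change -6.69 ± 0.33, adjusted p = 4.15e-12). Sox6, a factor of red cell and cartilage development, had 70.2 and 65 CPM in MPP1 and 2.11 and 4.57 CPM in MPP4 (log2 fold change -4.30 ± 0.22, adjusted p = 6.17e-12). Rhoj, Cracr2b, Fhdc1 and Gda also fell (log2 fold change -5.44, -4.55, -4.49 and -4.35, highest adjusted p = 5.55e-07).

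Among the largest called rises, Drc7, a protein of motile cilia, was at 0 in both MPP1 libraries and had 197 and 91 counts in MPP4, a log2 change of at least 6.54. Sema3d, a secreted guidance protein, had 0 and 1.26 CPM in MPP1 and 62.3 and 57.5 CPM in MPP4 (log2 fold change 6.60 ± 0.59, adjusted p = 3.51e-07). Slc18a1, a transporter of monoamines into vesicles, had 0.301 and 0.296 CPM in MPP1 and 23.6 and 26.6 CPM in MPP4 (log2 fold change 6.41 ± 0.73, adjusted p = 1.41e-06). Both were far higher in each MPP4 library than in either MPP1 library. Kcng1, a potassium channel subunit, rose by 6.54 ± 0.66 (adjusted p = 6.06e-07). Clec2i and Arpp21 had 0 and 3 and 0 and 3 counts in the MPP1 libraries and log2 ratios of 6.89, with a 95% counting interval of 5.33 to 9.18, and 6.65, with a 95% counting interval of 5.09 to 8.94.

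Markers of other cell types were looked at as whole lists. Of 8 mature B cell markers none was called, and Pax5 and Ms4a1 were at 0 in all 4 libraries, with a summed level over the list of 42.0 to 48.0 CPM in MPP1 and 50.7 to 59.5 CPM in MPP4. Of 10 T and NK cell markers, 1 was called higher and 1 lower in MPP4, and Cd3e, Cd3g and Cd8b1 were at 0 in all 4 libraries. Their sum was 52.4 to 52.8 CPM in MPP1 and 114 to 131 CPM in MPP4, where Nkg7, a granule protein of cytotoxic cells that progenitors also transcribe, made up 101 and 117 CPM. The 8 neutrophil markers summed to 80.4 to 108 CPM in MPP1 and 32.3 to 39.6 CPM in MPP4, with 3 called lower, among them Ngp (log2 fold change -1.43 ± 0.28, adjusted p = 0.000657), while Mpo was higher in MPP4. Of these 3 calls, none was made without the first MPP1 or the first MPP4 library, and 1 without the second of either. The 10 endothelial and stromal markers summed to 68.3 to 70.7 CPM in MPP1 and 33.8 to 39.8 CPM in MPP4 with Cdh5 and Dcn at 0 throughout, and Col1a2 was the 1 called lower (log2 fold change -2.96 ± 0.41, adjusted p = 2.51e-05). The macrophage markers summed to 71.8 to 78.3 CPM in MPP1 and 92.5 to 109 CPM in MPP4, with Vcam1 called higher, a call that was lost when any one library was left out. The plasmacytoid and dendritic cell markers apart from Flt3 summed to 64.2 to 65.0 CPM in MPP1 and 95.6 to 105 CPM in MPP4, with Siglech at 0 in both MPP1 libraries and Cd209a at 0 in all 4. Of these 8 markers 3 were called higher and none lower, with any one library left out as well, and the median was 3.51, or 1.73 with genes at 0 in one fraction set to their bound. The 3 were Ccr9 and Ly6d, which the early lymphoid list also holds, and Itgax, the last 2 of them named here after their values were seen. The part of such cells in the differences above was not tested. In bulk libraries like these, fewer cells of a type and less RNA per cell cannot be told apart.

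To place these differences among the other young progenitors, MPP4 was also set against the mean of MPP2 and MPP3, a comparison that uses the same 2 MPP4 libraries. It gave 674 (4.76%) higher and 713 (5.04%) lower genes. The early lymphoid list held 20 higher and 5 lower genes in it, and its median was 0.78. Dntt had 4.98 and 6.43 CPM in MPP2 and 58.4 and 59 CPM in MPP3, Satb1 had 26.6 and 28.2 CPM in MPP2 and 85 and 91 CPM in MPP3, and Il12a had 14.4 and 15.3 CPM in MPP2 and 25 and 24 CPM in MPP3, each below both MPP4 libraries (log2 fold change of MPP4 5.38 ± 0.09, 2.81 ± 0.11 and 2.35 ± 0.14, highest adjusted p = 5.81e-11).

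Megakaryocyte genes were lower in MPP4 in this comparison too, with 19 of 28 called lower and 2 higher. Erythroid genes fell more often than against MPP1 in count, 17 of 28 beside 9 of 28, and a difference between these counts was not tested. Gata1 had 48.9 and 49.7 CPM in MPP2 and 10.3 and 8.78 CPM in MPP3, so that MPP2 held the highest level and MPP4 the lowest of the 4 fractions. The basophil, mast cell and eosinophil list, split against MPP1, had 12 of 18 genes lower and 1 higher in MPP4 here, with a median of -3.63. In the neutrophil and monocyte list 14 of 30 genes were lower and 5 higher in MPP4, beside 1 lower and 14 higher against MPP1. Mpo had 1620.3 and 1658 CPM in MPP2 and 3032 and 3259 CPM in MPP3, above every MPP4 library (log2 fold change against their mean -1.74 ± 0.36, adjusted p = 0.00136). Cebpa had 20.5 and 22.3 CPM in MPP2 and 42.8 and 41.8 CPM in MPP3, so that MPP3 lay nearer to MPP4 than MPP2 did. MPP4 was above the mean of the 2 (log2 fold change 0.71 ± 0.13, adjusted p = 0.000346), and MPP4 against MPP3 alone was not tested.

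The cell cycle lists showed little against MPP2 and MPP3. None of the 43 S phase genes was called higher and 2 were lower, and 2 of 54 G2 and M phase genes were higher and 1 lower, with medians of -0.10 and 0.06. Top2a had 556 and 551 CPM in MPP2 and 306 and 329 CPM in MPP3 (log2 fold change 0.20 ± 0.11, adjusted p = 0.281), so that MPP4 lay between these fractions. Cdk6 was lower in both MPP4 libraries than in every MPP2 and MPP3 library (log2 fold change against the mean of MPP2 and MPP3 -0.73 ± 0.10, adjusted p = 1.24e-05).

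**Figure D4:**
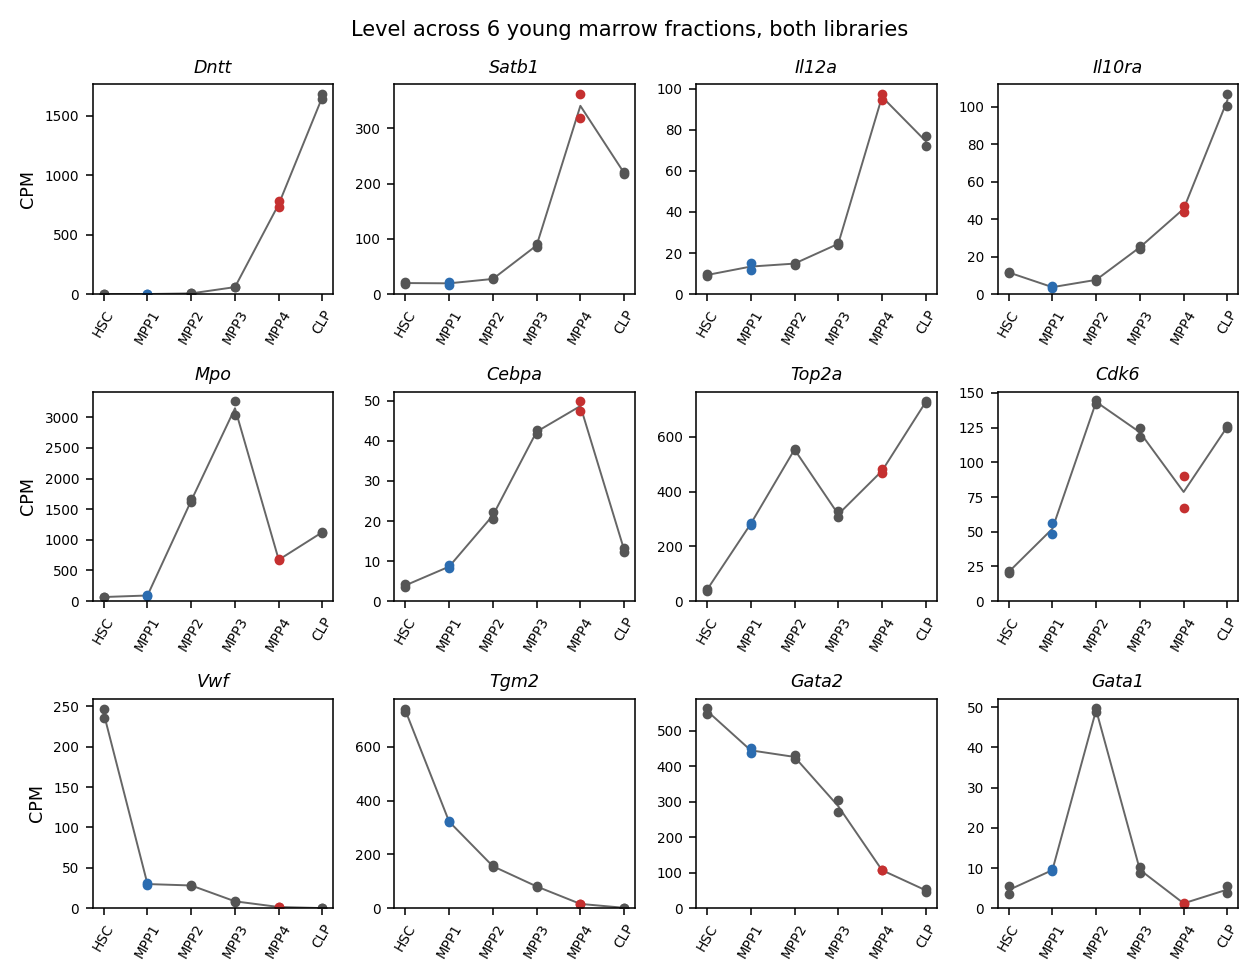
Level in CPM of 12 genes (vertical axes, from 0) in the 2 libraries of 6 young fractions, HSC, MPP1 (blue), MPP2, MPP3, MPP4 (red) and CLP, with lines through the means. Dntt, Satb1 and Il12a were high in MPP4 and CLP, Mpo was highest in MPP3, Gata1 was highest in MPP2, and Vwf, Tgm2 and Gata2 fell from the HSC to MPP4.

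Levels in the HSC and the CLP extend these orders, as values without a test. Dntt had a mean of 1661 ± 26.5 CPM (SD, n = 2) in the CLP and was at 0 in the HSC. Il7r had 151 ± 0.209 CPM in the CLP, far above its 5.44 ± 1.15 CPM in MPP4. The study stained its product, IL-7Rα, to sort the CLP and to deplete the MPP fractions, so this gap is not independent of the gates. Rag1 had 30.8 ± 0.352 CPM in the CLP, also far above MPP4. Satb1 had 219 ± 3.31 CPM in the CLP, below its MPP4 level of 341 ± 30.3 CPM. Vwf had 241 ± 8.38 CPM in the HSC against 29.9 ± 1.3 CPM in MPP1. This gap was larger in CPM, but smaller as a ratio, than that between MPP1 and MPP4 (log2 fold change -4.23). Tgm2 had 736 ± 9.71 CPM in the HSC and fell at each of the steps to MPP1 and to MPP4.

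The aged libraries, which share none with the young comparison, gave a second measurement of the same pair of fractions. There, 1480 genes (10.5%) were higher and 1277 (9.02%) lower in MPP4. With DESeq2's size factors in place of TMM, 43.3% of the aged calls were higher instead of 53.7%, while the young split hardly moved (50.9% and 51.4%). Of the 938 genes higher in young MPP4, 922 (98.3%) had the same sign in the aged libraries and 708 were called higher there, 75.5% of the young and 47.8% of the aged list. Of the 887 lower genes, 877 (98.9%) had the same sign and 732 were called lower, 82.5% of the young and 57.3% of the aged list. In the aged pair 3 of the young higher genes were called lower, and none of the young lower genes was called higher. The 3 were Cpa3, Bhlhe40 and Rhob, the last 2 of them named here after their values were seen. Cpa3 had 5.85 and 5.43 CPM in MPP1 and 1.63 and 2.17 CPM in MPP4 in aged mice (log2 fold change -1.45 ± 0.18, adjusted p = 3.16e-06), and its difference between ages passed the threshold (-2.06 ± 0.24, adjusted p = 0.00017).

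In aged mice the lymphoid, platelet and cell cycle lists had the directions seen in young mice. The early lymphoid list had 20 higher and 2 lower genes, the megakaryocyte list 23 lower and none higher, the S phase list 17 and the G2 and M phase list 37 higher and none lower. Dntt had 0.847 and 1.31 CPM in MPP1 and 1044 and 1088 CPM in MPP4 (log2 fold change 10.03 ± 0.16, adjusted p = 1.65e-17). Satb1 had 9.39 and 10.8 CPM in MPP1 and 324 and 328 CPM in MPP4 (log2 fold change 5.12 ± 0.16, adjusted p = 1.21e-15). Vwf had 44.6 and 51.2 CPM in MPP1 and 0.741 and 1.15 CPM in MPP4 (log2 fold change -5.53 ± 0.34, adjusted p = 5.38e-11). All 3 were separated in the same direction as in young mice. Ribosome biogenesis and Myc genes were called higher more often, 22 of 40 beside 4 of 40 in young mice. Over all tested genes the shares called higher were 10.5% in aged and 6.63% in young mice. For none of the listed genes did the test of the difference between ages pass the threshold. The aged list count was not repeated with DESeq2's size factors, which moved the split of the aged calls. Prss34, present in young MPP4, was at 0 in all 4 aged libraries, and Epx had no count there either.

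The difference between the MPP4 to MPP1 fold changes of the 2 ages was tested directly, and 34 genes (0.24%) passed, while 1233 of the 14154 had an unadjusted p under 0.05. Sdc1, the proteoglycan syndecan 1, had 25.9 and 30.3 CPM in MPP1 and 164 and 169 CPM in MPP4 in young mice. In aged mice it had 33.3 and 36.3 CPM in MPP1 and 50.6 and 47.6 CPM in MPP4. Its rise in MPP4 was much smaller there (difference, aged minus young, -2.02 ± 0.19, adjusted p = 7.72e-06). Plek had 138 and 144 CPM in MPP1 and 159 and 159 CPM in MPP4, with the aged MPP4 libraries at a level between the 2 young fractions (difference -2.02 ± 0.26, adjusted p = 0.000397). Plac8, a small protein of myeloid and lymphoid progenitors, had 92.5 and 104 CPM in MPP1 and 321 and 383 CPM in MPP4 in young mice and 68.5 and 65.1 CPM in MPP1 and 522 and 463 CPM in MPP4 in aged mice (difference 1.09 ± 0.15, adjusted p = 0.001).

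**Figure D5:**
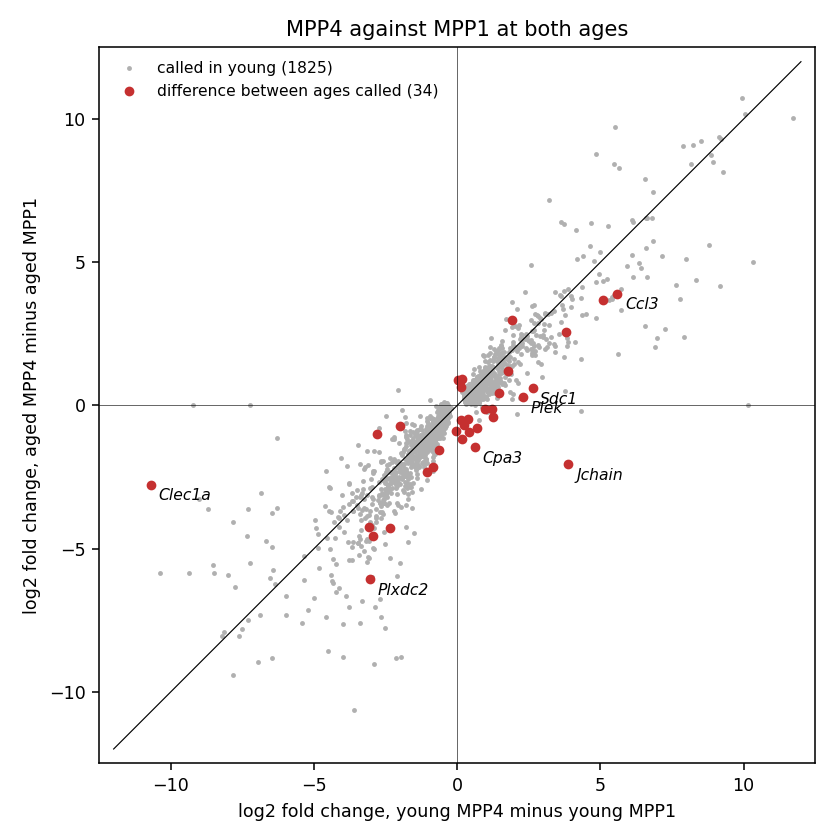
Log2 fold change of MPP4 over MPP1 in aged (vertical axis) against young mice (horizontal axis) for the 1825 genes called in young mice (grey), with the 34 genes whose difference between ages passed the threshold in red and a line of equality. Nearly all grey points lie in the quadrants of equal sign; Clec1a, at 0 in young MPP4, and Jchain lie far from the line.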

How the data were processed

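RNA was sequenced from sorted marrow fractions with a low-input cDNA kit and no molecular identifiers, so counts include amplification copies. The authors aligned single reads to mm10 with TopHat2 2.0.13 and Bowtie2 2.1.0 and deposited raw gene counts made with StringTie; no strand setting was found in the sources used here, so overlapping and antisense genes cannot be told apart. The table held 24421 genes, 27 of them with names turned into dates (0.188% of counts).

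From the counts, edgeR 4.0.16 (R 4.3.3) was fitted to all 32 libraries in 16 groups with TMM scaling, after filterByExpr left 14154 genes, and the quasi-likelihood F-test with Benjamini-Hochberg adjustment within each of 4 contrasts called genes at an adjusted p under 0.01, the study's level. The biological coefficient of variation was 0.113 with 16 residual degrees of freedom. P-values cover only the spread between duplicates. Where one fraction had no count, the fold was bounded against 3 counts over both libraries; with 1 to 3 counts the log2 ratio has an exact 95% Poisson interval, for counting error only. On simulated counts for the MPP4 to MPP1 contrast (14032 genes), 14% of genes changed by 0.5 log2 units were recovered, 98% at 1 and 100% at 2 and 3. There, every gene had the same coefficient of variation of 0.113, and only 200 genes of at least 5 CPM in MPP1 were changed. These rates therefore do not cover genes of lower level or wider spread, nor a comparison with as many changed genes as here.

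The genes and lists were chosen with earlier results of these data known. Genes named were the gate antigens, a fixed set of key genes, up to 4 called genes in each direction per list with a mean of at least 5 CPM in the higher group, the 10 largest calls in each direction of at least 10 CPM, and the 5 largest in each of the other contrasts. A few genes that this rule names are not reported here. Coordinates were from GENCODE M21. Alternatives were DESeq2 1.42.0, its size factors, other filters and thresholds, a replicate block, fewer libraries in the fit, and leaving out each library.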

Additional observations from a re-analysis of the deposited data

Results flagged for a closer look

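The MPP4 to MPP1 fold change differed between young and aged mice by the test of the difference itself in 34 genes, 8 with a positive and 26 with a negative difference (aged minus young, log2, adjusted p under 0.01). The named genes among them follow, with no explanation. Cpa3, a mast cell protease gene, differed by -2.06, being called higher in young (0.61) and lower in aged MPP4 (-1.45). Plek, a kinase substrate of platelets and leukocytes, differed by -2.02, and the chemokine gene Ccl3 by -1.7, both rising less in aged MPP4. Sdc1 differed by -2.02 in the same way. Plxdc2, a membrane receptor, differed by -3.04 and Fam110c by -1.93, both falling further in aged MPP4. Tnfsf13, the cytokine APRIL, differed by 1.79 and Rnf125, a ubiquitin ligase, by 1.28, both falling less in aged MPP4. Plac8 differed by 1.09, rising more in aged MPP4, and Ap3s1, a subunit of a vesicle adaptor, by 0.85. Clec1a had a fitted difference of 7.94, which is no bound because both young MPP4 libraries were at 0. The fitted fold change of further genes of the 34 also changed sign between ages. Only Cpa3, Bhlhe40 and Rhob were called in opposite directions at the 2 ages. Outside the naming rule and chosen after their values were seen, examples are Bhlhe40 (0.69 in young and -0.79 in aged mice, difference -1.48), Jchain (3.88 and -2.06, difference -5.94), Hnf4a (1.23 and -0.12, difference -1.35) and Sdc4 (1.24 and -0.4, difference -1.64). Groups of 2 libraries were too small to look for single libraries far from the others.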

How the results depend on the processing

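Counts are given as higher and lower in MPP4. At an adjusted p under 0.05 there were 1506 and 1402 genes in young mice, 2304 and 1984 in aged mice, 36 and 52 for the difference between ages, and 1027 and 1125 against MPP2 and MPP3. With a change of at least 1 log2 unit at 0.01 there were 355 and 520, 322 and 811, 4 with a positive difference, and 256 and 391. In young mice DESeq2 gave 1262 and 1238 genes, sharing 1808 (99.1%) of the calls. A fit of the 16 young libraries gave 810 and 710, sharing 1413 (77.4%). For the difference between ages, DESeq2 gave 38 and 135 and its size factors in edgeR 5 with a positive difference. With one library left out, the ranges were 510 to 696 and 551 to 582 in young mice, 682 to 859 and 820 to 954 in aged mice, 1 to 6 and 7 to 17 for the difference between ages, and 388 to 525 and 380 to 612 against MPP2 and MPP3. The causes of these shifts were not tested. The distance between libraries was 1.2 between MPP1 and MPP4, 0.681 within MPP1 and 0.763 within MPP4 with a prior count of 0.5, and 0.749, 0.293 and 0.335 over genes of at least 5 CPM.

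Deviations from the group mean in same-numbered MPP1 and MPP4 libraries had r = 0.0342 in young and -0.0256 in aged mice. Values near 0 over all tested genes cannot show whether same-numbered libraries shared a pool or a sort. A replicate block gave 948 higher and 885 lower genes, sharing 1767 (96.8%) of the calls, and called Mki67 (0.71, adjusted p = 0.00888). Over 131 genes under up to 11 alternatives, 1323 values kept direction and side of the threshold, 111 lost the call, 4 gained it and none reversed; most losses came when one library was left out or the 4 libraries were fitted alone. The effect of depth was not tested. The 4 libraries alone gave 1404 calls, 643 higher and 761 lower, and shared 1230 (67.4%) of the 1825 calls.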
